A study of Homo sapiens with 4 samples.

Results

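Cathepsins are the proteases of the lysosome, and 10 of their genes (CTSA, CTSB, CTSC, CTSD, CTSH, CTSK, CTSL, CTSO, CTSS and CTSZ) were examined by name among the 57815 genes of the deposited table. Each name matched 1 row. The sequenced libraries were prepared from total RNA of 2 lines. These were MDA-MB-231, a triple-negative breast cancer cell line grown in culture, and LM2-4175, a line that was isolated from MDA-MB-231 and metastasizes to the lung. Both lines were untreated, and each had 2 libraries. The authors combined the libraries of a line into 1 FPKM per gene (fragments per length of transcript, scaled to all mapped fragments) with a lower and an upper bound, given in parentheses after each value, so no SD or test between replicates could be computed, and library depth was not used here. LM2-4175 is a single derivative line, and nothing in the labels says that its libraries came from separate cultures. A gene was called where its change in FPKM + 1 was at least 1.5-fold and the 2 lines had separate bounds. Such a call sets pooled libraries side by side and has no replicate check.

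Most cathepsins are made as inactive precursors, are tagged with mannose 6-phosphate in the Golgi and reach the acidic lysosome, where the propeptide is removed. They fall into classes by the residue that cuts the peptide bond: CTSD is an aspartic protease, CTSA a serine carboxypeptidase, and the other members are cysteine proteases related to papain. In tumours they are also secreted and can act on the extracellular matrix, where cystatins are the main inhibitors of the cysteine cathepsins.

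Of the 10 cathepsin genes, CTSD fell about 3-fold in LM2-4175 and was the 1 gene called. The other 9 had overlapping bounds. Among all 13911 genes tested, 4.61% were called lower, 4.67% higher and 9.27% in either direction, so the count of 1 in 10 is near that of all genes. CTSZ, with the lower value in LM2-4175, and CTSS, with the higher, were also at least 1.5-fold apart, and with CTSD they make 3 of 10, against 22.1% of all genes tested by the fold alone. The median log2 change of the cathepsin genes was 0.10 (6 higher, 4 lower), against -0.04 for all genes tested. All 10 passed the filter on low values. The RNA is that of the whole culture, in which fewer cells that express a gene and less of its RNA per cell cannot be told apart.

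**Figure D1:**
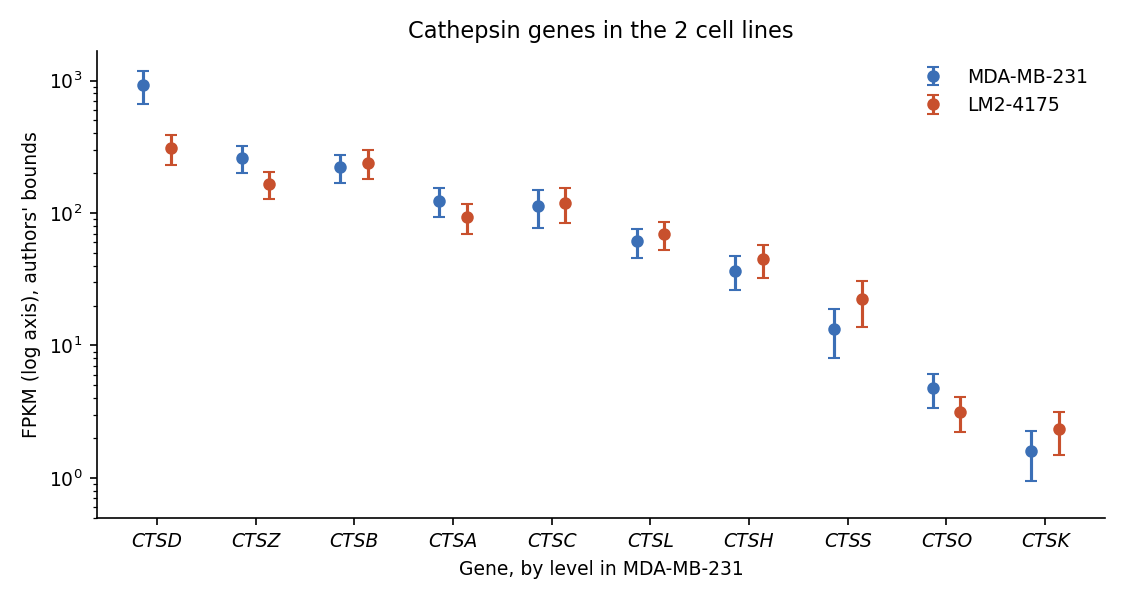
FPKM of the 10 cathepsin genes (log axis) in MDA-MB-231 and LM2-4175, with points for the authors' pooled value of each line and bars for the authors' bounds. The bounds of CTSD lie apart (664.6 to 1176 and 231 to 387 FPKM), those of CTSZ overlap by 2.636 FPKM, and the other genes overlap further in relation to their level.

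CTSD, the main aspartic protease of the lysosome (ENSG00000117984, chromosome 11 of GRCh37, 1773982 to 1785803, minus strand), was at 920.5 FPKM (664.6 to 1176) in the parental line. In LM2-4175 it was at 309 FPKM (231 to 387). The bounds were 277.6 FPKM apart, the ratio was 0.336 and the log2 change was -1.57. Only 1.31% of all genes tested had a lower log2 change. Among 986 genes with a mean of at least 100 FPKM, whose median log2 change was -0.13, 10 including CTSD had a change as low or lower, and 5.27% were called lower. CTSD was the 95th most abundant gene of the table in MDA-MB-231 and the 228th in LM2-4175. In GENCODE 44, 48.2% of its exon bases also lie in exons of other genes, mainly the antisense lncRNA gene PRADX (23.4%) and a readthrough gene, ENSG00000250644 (22.9%). PRADX was listed at 0 in both lines, and ENSG00000250644 had 2.096 and 1.305 FPKM. How the reads were divided between these genes was not tested.

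CTSA, which cuts residues from the carboxyl end of peptides and protects beta-galactosidase and neuraminidase (ENSG00000064601, chromosome 20, 44518783 to 44527588, plus strand), was at 124.2 FPKM (93.59 to 154.8) in the parental line, against 93.1 FPKM (69.58 to 116.6) in LM2-4175. The log2 change was -0.41, under 1.5-fold, and the bounds overlapped by 23.03 FPKM. Exons of NEURL2, PLTP and a lncRNA on the opposite strand cover 21.5% of its exon bases. NEURL2 had at most 0.1183 FPKM in either line and PLTP 2.974 and 3.538 FPKM, so the levels of CTSA were far above both. Of its partners, GLB1, which encodes beta-galactosidase, had 43.88 and 45.13 FPKM (log2 change 0.04). NEU1, which encodes neuraminidase, was listed at 0 in both lines. An exact 0 in this table can be a failed estimate, since EEF1A1, which all cells express, is also listed at 0.

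The promoters of CTSD and CTSA are shown because they are the members, among those with a matched promoter, that hold CACGTG, the core of the element bound by TFEB and related factors of lysosomal genes. CTSD was called lower and CTSA was not called. That of CTSZ, which was over 1.5-fold lower on the scale of FPKM + 1 without a call, is shown for comparison. The windows are the 250 bases before the RefSeq start on GRCh38.p14, on the strand of the gene, with CACGTG in capitals. They lie at chr11:1763928-1764177 (minus strand) for CTSD, at chr20:45891085-45891334 (plus strand) for CTSA and at chr20:59007255-59007504 (minus strand) for CTSZ.
CTSD: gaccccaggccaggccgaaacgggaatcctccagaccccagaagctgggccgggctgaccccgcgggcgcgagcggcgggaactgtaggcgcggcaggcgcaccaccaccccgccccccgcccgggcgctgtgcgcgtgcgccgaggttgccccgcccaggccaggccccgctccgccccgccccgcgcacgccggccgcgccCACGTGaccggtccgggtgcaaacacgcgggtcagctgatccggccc
CTSA: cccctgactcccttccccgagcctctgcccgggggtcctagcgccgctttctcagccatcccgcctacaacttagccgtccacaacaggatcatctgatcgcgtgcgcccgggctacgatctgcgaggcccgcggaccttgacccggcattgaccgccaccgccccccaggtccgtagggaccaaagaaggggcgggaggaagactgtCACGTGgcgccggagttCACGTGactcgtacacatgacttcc
CTSZ: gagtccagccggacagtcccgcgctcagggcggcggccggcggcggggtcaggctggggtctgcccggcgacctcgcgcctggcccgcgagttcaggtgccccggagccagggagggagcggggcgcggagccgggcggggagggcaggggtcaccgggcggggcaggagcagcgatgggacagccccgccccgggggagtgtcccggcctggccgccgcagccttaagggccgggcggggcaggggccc
The match in CTSD starts 47 bases before the gene, and those in CTSA start 42 and 25 bases before it. The window of CTSZ has no match. RefSeq promoters were matched for 6 of the 10 members (CTSA, CTSC, CTSD, CTSH, CTSL and CTSZ), and CTSD and CTSA were the 2 of these with CACGTG, which 7.26% of 35116 promoter windows of 300 bases hold (250 before and 50 after the start). The same letters were in 4 of 8 windows of the sorting genes and 2 of 4 of the partners, in 3 of 22 of the other hydrolases, 3 of 16 of the membrane proteins and 3 of 15 of the proton pump, a gene having up to several windows, and also in CTSF. Apart from CTSD, no gene tested with the letters in these lists was called, against 9.27% of all genes tested. GGGCGG, the GC box of Sp1-type factors, was present in all 6 on either strand and in 45.0% of all windows. TGANTCA, the AP-1 element, and GAAANNGAA, a repeat bound by interferon regulatory factors, were found in none of the 6, against 7.71% and 8.11% of all windows. All of these were searched on both strands, and a match describes the letters only.

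CTSZ, a carboxypeptidase also called cathepsin X (ENSG00000101160, chromosome 20, 57560741 to 57583293, minus strand), had the highest value of the cysteine cathepsins in MDA-MB-231, with bounds that overlapped those of CTSB. It was at 259.7 FPKM (200.4 to 319) there. LM2-4175 had 165.3 FPKM (127.5 to 203.1), which gives a ratio of 0.636 and, on the log2 scale, a change of -0.65. The overlap of the bounds was 2.636 FPKM, so CTSZ was close to being called. A rule on standard errors read from the bounds called it, as given in the closing section. NELFCD, on the opposite strand, covers 31.7% of the exon bases of CTSZ and had 73.46 and 77.3 FPKM, a log2 change of 0.07. How the reads were divided between CTSZ and NELFCD was not tested.

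CTSB, which cuts within peptides and removes dipeptides from their end (ENSG00000164733, chromosome 8, 11700033 to 11727042, minus strand), was at 220.8 FPKM (167.2 to 274.3), then 240.5 FPKM (182.1 to 298.8). CTSL, an endopeptidase (ENSG00000135047, chromosome 9, 90338966 to 90346384, plus strand), was at 61.11 FPKM (46.09 to 76.12), then 69.44 FPKM (52.65 to 86.23). CTSC, a dipeptidyl peptidase that activates the serine proteases of immune granules (ENSG00000109861, chromosome 11, 87998237 to 88092852, minus strand), was at 112.7 FPKM (76.75 to 148.7), then 119.5 FPKM (84.7 to 154.4). In each pair the first value is that of MDA-MB-231, and the value of LM2-4175 lay within the bounds of MDA-MB-231. The log2 changes were 0.12 for CTSB, 0.18 for CTSL and 0.08 for CTSC, none of them detectable within these bounds. Of the 9 rows named as CTSL pseudogenes, CTSLP2 was the 1 with a value above 0 (0.06227 FPKM in MDA-MB-231).

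CTSH, an aminopeptidase that takes part in the maturation of surfactant proteins in the lung (ENSG00000103811, chromosome 15, 79213400 to 79241916, minus strand), was at 36.68 FPKM (26.28 to 47.07) in the parental line, against 44.66 FPKM (32.26 to 57.06) in LM2-4175. Its log2 change of 0.28 was not called. The genes around CTSH were mostly higher as well: of 30 other protein-coding genes tested within 3 Mb, 25 were higher in LM2-4175, with a median log2 change of 0.48. CTSO, a cysteine cathepsin of little-known function (ENSG00000256043, chromosome 4, 156842732 to 156875064, minus strand), was at 4.741 FPKM (3.386 to 6.096), then 3.135 FPKM (2.212 to 4.058). Its ratio was 0.661, but its log2 change of -0.47 on the scale of FPKM + 1 was under 1.5-fold and the bounds overlapped.

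CTSS and CTSK lie beside each other on chromosome 1, and both had higher values in LM2-4175 without being called. CTSS, which trims the invariant chain CD74 in antigen-presenting cells and stays active at neutral pH (ENSG00000163131, 150702555 to 150738433, minus strand), was at 13.43 FPKM (8.089 to 18.78) in the parental line, against 22.31 FPKM (13.7 to 30.92) in LM2-4175. This was the largest positive difference of the 10 genes, a ratio of 1.66 and a log2 change of 0.69, and its bounds overlapped by 5.081 FPKM. CTSK, the collagen-degrading cathepsin of osteoclasts (ENSG00000143387, 150767356 to 150782053, minus strand), was the lowest of the 10 in both lines, with 1.598 FPKM (0.9433 to 2.252), then 2.331 FPKM (1.493 to 3.168), and a log2 change of 0.36. CD74 itself had 280.7 and 219.7 FPKM, a log2 change of -0.35 that was not called.

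As CTSS is a gene of macrophages and CTSK of osteoclasts, the markers of such cells were listed. Of 9 leukocyte and macrophage genes, PTPRC, ITGAM, SPI1 and TYROBP had at most 0.07667 FPKM in either line, and LYZ had 0.448 and 0.1602 FPKM. AIF1 was listed at 0, which can be a failed estimate here, as for NEU1. Only 3 of the 9 were tested (CD14, CSF1R and CD68), and none of these was called. CSF1R had 2.917 and 0.79 FPKM, a log2 change of -1.13, with bounds that overlapped by 0.1701 FPKM. The summed level of the 9 was 111.7 FPKM in MDA-MB-231 and 181.6 FPKM in LM2-4175. Without CD68 it was 4.679 and 2.746 FPKM. The bounds of CD68 reached from 0 to 237.6 and from 10.57 to 347.2 FPKM. Of 3 osteoclast genes, ACP5 and OSCAR had at most 0.2922 FPKM and were not tested. CALCR was called lower, from 1.214 to 0.1936 FPKM, and passed the filter on low values only through its level in MDA-MB-231. Of the markers of a triple-negative mesenchymal line, VIM had 1355 and 1768 FPKM and CD44 had 469.7 and 355 FPKM. ESR1 and PGR had no more than 0.03314 FPKM. ERBB2, listed beforehand as a low marker, had 34.95 and 22.76 FPKM, above the medians of 11.85 and 11.61 FPKM of all genes tested. Of 5 luminal epithelial genes, EPCAM, KRT8, KRT18 and KRT19 were called lower in LM2-4175, against 4.61% of all genes tested. CDH1 was not called, and the sum of the 5 went from 1338 to 403 FPKM. The part of these genes in the changes of the cathepsins was not tested.

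**Figure D2:**
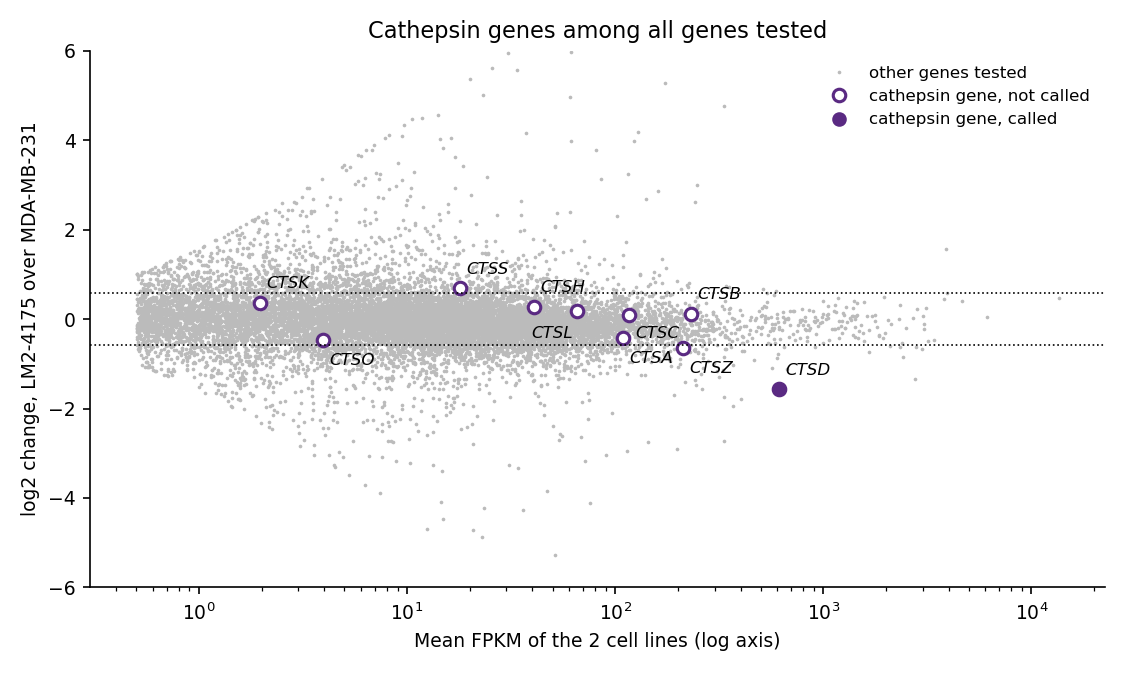
Log2 change of FPKM + 1 (LM2-4175 over MDA-MB-231) against mean FPKM (log axis) for the genes tested (grey) and the 10 cathepsin genes (purple, filled where called), with dotted lines at 1.5-fold. CTSD at -1.57 lies below most genes of its level, while the other cathepsin genes lie between -0.65 and 0.69. Points of 8 genes fall beyond the axis.

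The 10 genes spanned a wide range of levels, which FPKM allows to be set side by side because it is per length. In MDA-MB-231 the highest, CTSD, was 576-fold above the lowest, CTSK, and in LM2-4175 the range was 133-fold. The order in MDA-MB-231 was CTSD, CTSZ, CTSB, CTSA, CTSC, CTSL, CTSH, CTSS, CTSO and CTSK. There CTSD stood apart from CTSZ, while the bounds overlapped within the pairs CTSZ and CTSB, CTSA and CTSC, and CTSL and CTSH. In LM2-4175 the order was CTSD, CTSB, CTSZ, CTSC, CTSA, CTSL, CTSH, CTSS, CTSO and CTSK. Each of the first 7 overlapped its neighbour in that order, CTSD and CTSB included, as did CTSO and CTSK. The parental line had 4.17 times as much CTSD as CTSB, and LM2-4175 1.29 times.

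The cathepsin genes together held 1755 FPKM in MDA-MB-231, 0.277% of the FPKM sum of all genes, and 1069 FPKM in LM2-4175, 0.179%. Of these sums CTSD made up 52.4% and 28.9%. Without CTSD, the other 9 genes held 834.9 and 760.2 FPKM, or 0.132% and 0.127% of the sum of all genes. The lower total in LM2-4175 therefore lay mainly in CTSD.

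The table also lists 5 cathepsin genes outside this set. CTSV, a close relative of CTSL, rose from 2.48 FPKM (1.585 to 3.374) to 4.953 FPKM (3.411 to 6.495) and was called higher, with a log2 change of 0.77 and bounds barely apart. It was not called at a threshold of 2-fold or after quantile normalization. Along 1244 aligned bases the transcripts of CTSL and CTSV are 83.7% identical, with no identical run longer than 40 bases. CTSF, another papain-like member, had 23.91 and 22.16 FPKM (log2 change -0.11). CTSW, a cathepsin of cytotoxic lymphocytes, had 1.119 and 4.905 FPKM with lower bounds of 0 in both lines, so its log2 change of 1.48 was not called. CTSE, an aspartic protease like CTSD, had 0.2979 and 0.1644 FPKM and CTSG, a serine protease of neutrophils, was listed at 0, so neither was tested.

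Of 9 cystatin genes, 7 were tested. Of these 7, 6 were called lower in LM2-4175 and none higher, against 4.61% of all genes tested that were called lower. CSTB was tested and not called, and CSTA and CST5 were too low to be tested. The median log2 change of the 7 tested was -2.41, against -0.04 for all genes tested. Whether the cystatins differed from the cathepsins as a group was not tested. CST6 passed the filter on low values only through its level in MDA-MB-231.

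CST3, which encodes cystatin C, the main extracellular inhibitor of cysteine cathepsins, fell from 238.1 FPKM (182.3 to 294) down to 129 FPKM (98.03 to 160), which is -0.88 on the log2 scale and was not called at a threshold of 2-fold. CST1, one of the secreted salivary-type cystatins, fell from 143.3 FPKM (110.1 to 176.5) down to 7.336 FPKM (4.861 to 9.812), which is -4.11 on the log2 scale. Its relatives CST4 and CST2 fell from 33.43 to 5.492 FPKM and from 10.31 to 0.7028 FPKM, with log2 changes of -2.41 and -2.73. The transcripts of CST1, CST2 and CST4 are 91.4% to 94.7% identical to each other, with an identical run of 152 bases between CST1 and CST4, so the division of reads among them is uncertain. Their sum, which does not depend on that division, was 187 FPKM in MDA-MB-231 and 13.53 FPKM in LM2-4175. CST7, which encodes cystatin F of immune cells, fell from 8.679 FPKM (5.955 to 11.4) to 1.635 FPKM (0.9095 to 2.361). CST6, which encodes cystatin M, fell from 6.274 FPKM (4.014 to 8.533) to 0.1237 FPKM (0 to 0.2778). Its log2 change of -2.69 became -5.66 without the added 1, where that of CST1 was -4.29. CSTB, which inhibits cathepsins inside the cell, was at 78.56 FPKM (60.26 to 96.85), then 55.73 FPKM (42.47 to 69), with a log2 change of -0.49 and overlapping bounds. CSTB was called lower by the rule on standard errors.

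**Figure D3:**
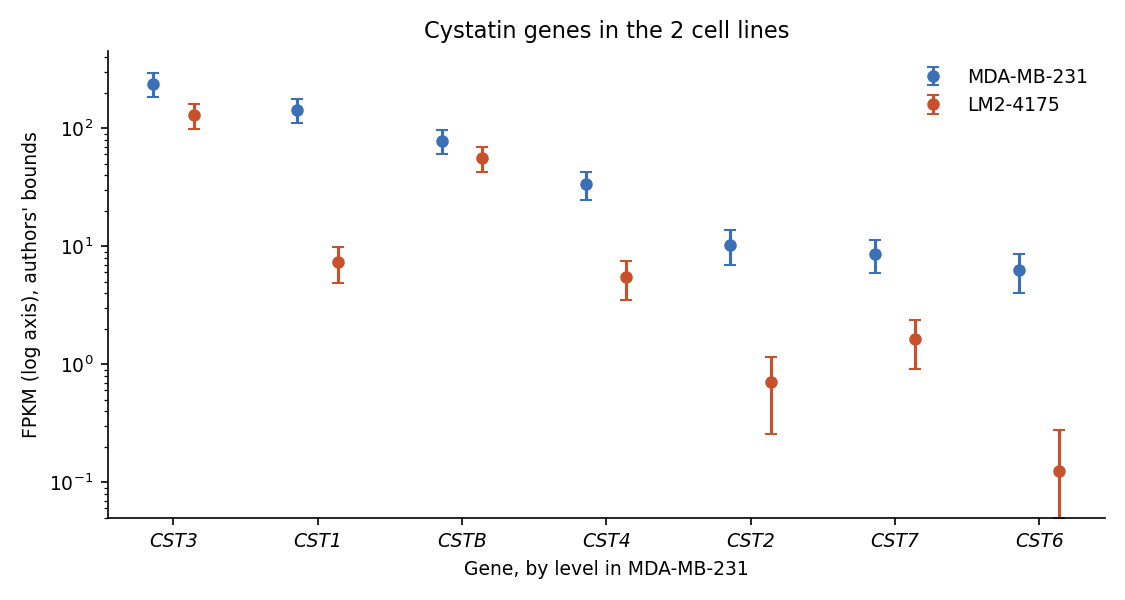
FPKM (log axis) of the 7 cystatin genes tested, with points for the authors' pooled value of each cell line and bars for the authors' bounds, the lower bound of CST6 in LM2-4175 being 0 and drawn to the edge. Bounds lie apart for 6 genes and overlap for CSTB, and CST1 goes from 143.3 to 7.336 FPKM.

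Genes that carry cathepsins to the lysosome and activate them showed no call among 7, against 9.27% of all genes tested. LGMN, the asparaginyl protease that matures several cathepsins, was at 27.15 FPKM (20.59 to 33.72) in the parental line, against 43.33 FPKM (32.99 to 53.67) in LM2-4175. Its log2 change was 0.66, with bounds that just overlapped. It was called higher after scaling to the same FPKM sum, after centring and after quantile normalization. The receptors of the mannose 6-phosphate tag, M6PR and IGF2R, had log2 changes of 0.14 and 0.10, the tag-making enzyme gene GNPTAB of -0.11 and the sorting receptor gene SORT1 of -0.35, none of them called.

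Among 62 other lysosomal genes tested, the sorting genes included, none was called lower and 1 higher, against 4.61% and 4.67% of all genes tested. None of 4 tested genes for partners and substrates was called. The largest difference was in DPP7, a dipeptidyl peptidase gene, with 84.44 and 58.07 FPKM (log2 change -0.53), and PSAP, whose product CTSD cleaves into saposins, had 280.1 and 311.3 FPKM (log2 change 0.15). None of 25 other lysosomal hydrolases was called (13 higher, 12 lower, median 0.08). The largest difference among them was in IDS, a sulfatase gene, with 48.73 and 85.03 FPKM and overlapping bounds. None of 9 lysosomal membrane protein genes was called, with changes of -0.33 in NPC1, the cholesterol exporter, to 0.32. Of 17 subunits of the proton pump that acidifies the lysosome, ATP6V0A1 was called higher, from 11.3 FPKM (7.72 to 14.89) to 23.38 FPKM (16.37 to 30.39), but not at a threshold of 2-fold. Over these 4 lists and the sorting genes, 62 genes tested had a median log2 change of 0.01 and a range of -0.65 to 0.99, against -1.57 for CTSD.

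Of the MiT transcription factors, which switch on lysosomal genes, TFEB was called lower, from 6.251 FPKM (3.8 to 8.703) down to 2.406 FPKM (1.404 to 3.408), which is -1.09 on the log2 scale. TFE3, the most abundant of them, had 51.77 and 41.68 FPKM (log2 change -0.31) and was not called. MITF was at 7.688 FPKM (4.929 to 10.45), then 16.03 FPKM (10.29 to 21.77), with a log2 change of 0.97 and bounds that just overlapped. MITF was called higher after scaling to the same FPKM sum and after centring, but not after quantile normalization. TFEC was too low to be tested. TFEB lies on chromosome 6 among genes that were mostly lower in LM2-4175, with 47 of 59 protein-coding genes within 3 Mb lower and a median of -0.48.

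**Figure D4:**
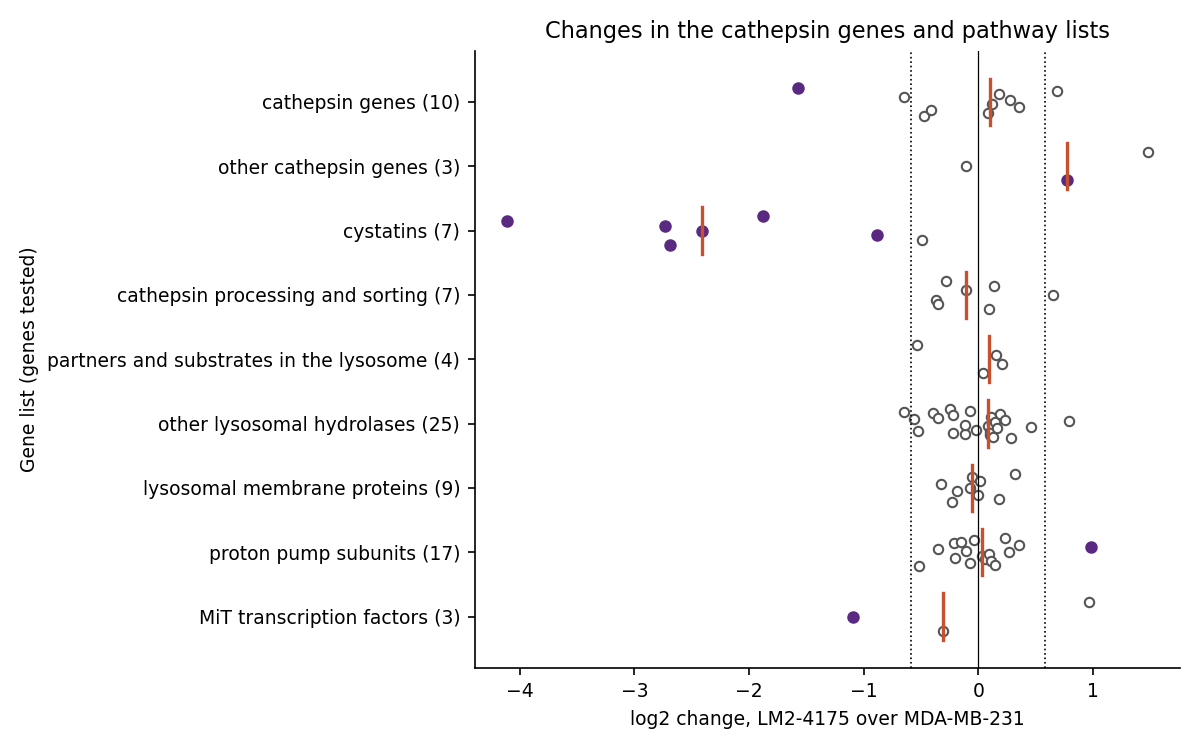
Log2 change of FPKM + 1 (LM2-4175 over MDA-MB-231) for each gene tested, by list, with filled points for genes called, red bars for the median of each list and dotted lines at 1.5-fold. The cystatins lie to the left with 6 of 7 called lower, CTSD is the 1 cathepsin called, and the other lysosomal lists centre near 0.

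The genes around the cathepsins on the chromosome were set beside them. For the counts below, 4.67% of all genes tested were called higher and 4.61% lower. Within 3 Mb of CTSD, 59 other protein-coding genes were tested, of which 30 were higher and 29 lower, with a median log2 change of 0.02, 6 called higher and 1 called lower. The genes nearest CTSD, ENSG00000250644 and IFITM10, had log2 changes of -0.43 and -0.88. The next nearest, DUSP8 and MRPL23, had 0.67 and 0.17, and none of these was called. The 21 genes near CTSZ had a median of 0.00 and the 43 near CTSA a median of 0.01. For CTSS, 42 of 67 neighbours were lower (median -0.08), and for CTSO, which was itself lower, 16 of 20 were higher (median 0.20). The 13 near CTSC had a median of 0.02. Within 1 Mb, where fewer genes were tested, the 2 neighbours of CTSC had a median of 0.72 and the 3 of CTSO a median of 0.84, while the 14 of CTSH had 0.51 and the 23 of CTSD 0.10. Around CST3 on chromosome 20, the 17 genes tested outside the cystatin family had a median of 0.03, with 2 called lower and 2 higher. Around CST7 on chromosome 20, the 14 such genes within 3 Mb had a median of -0.01, with 2 called lower and 2 higher. The 9 within 1 Mb of CST7 had a median of -0.28, with 2 called lower and none higher. Around CST6 on chromosome 11, 102 of 139 such genes were lower, with a median of -0.22, 9 called lower and none higher. Around CSTB on chromosome 21, 36 of 48 were lower, with a median of -0.35. The part of these regions in the values of the cathepsins and cystatins was not tested.

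**Figure D5:**
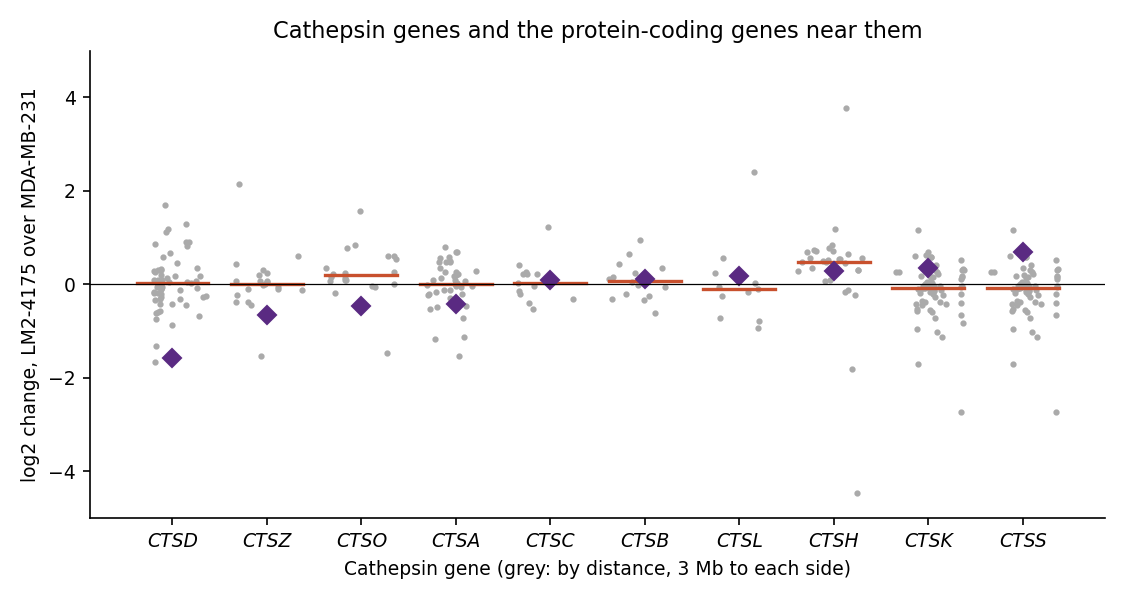
Log2 change of FPKM + 1 (LM2-4175 over MDA-MB-231) of each cathepsin gene (purple diamonds) and of the protein-coding genes tested within 3 Mb (grey, placed by distance), with red bars for the median of the neighbours. The neighbours of CTSD centre at 0.02 while CTSD lies at -1.57, and those of CTSH centre at 0.48.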

How the data were processed

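RNA-Seq of MDA-MB-231 and LM2-4175 was analysed, with 2 libraries per cell line. Per the labels and methods, the authors used TopHat2 on hg19 and Cufflinks on GENCODE 19 genes, and deposited 1 FPKM per gene and cell line with bounds and a status. What the bounds cover and the use of strand are not stated. Genes were tested at a mean of 0.5 FPKM or more and an OK status for both lines. The log2 change was that of FPKM + 1, which understates the change of low genes. Calls needed 1.5-fold and bounds apart. This was the rule written for 1 value per line, and limma could not be run. The members and lists were chosen with earlier results of these data known. All members and other cathepsin genes are named, and of each list the genes called or the largest change. Other genes were named after their values were seen. Positions and exons came from GENCODE 44 on GRCh37, which held 55535 of the genes, and promoters from RefSeq. Protein sequences were not analysed here. The steps were run with NumPy 2.4.6 and pandas 2.3.3 in Python 3.11.15 and drawn with Matplotlib 3.10.9. Of them, the rule for calls was tested on simulated data. Its noise was taken from the bounds, so the spread between libraries was not examined. Alternatives are given in the closing section.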

Additional observations from a re-analysis of the deposited data

How the results depend on the processing

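The call of CTSD held under all 12 alternatives tried, with a log2 change of -1.57 to -1.42. The number of cathepsin genes called stayed at 1 of 10 except under the fold of 1.5 alone and under a rule on standard errors. That rule uses the standard error of the difference, read from the bounds. With the fold alone the number was 3 of 10 (CTSD, CTSZ and CTSS), against 22.1% of all genes tested. With the standard errors it was 2 of 10 (CTSD and CTSZ), against 16.7% of all genes tested. In the pathway lists together, 9 genes were called, 7 lower (6 of them cystatins) and 2 higher, against 9.27% of all genes tested. The genes tested in these lists were 62 other lysosomal genes, 7 cystatins, 3 other cathepsin genes and 3 MiT factors. There were 14 calls with the fold alone, 15 with the standard errors, 6 at 2-fold (none higher), 6 at a mean of 5 FPKM (1 higher) and 11 after scaling to the same sum or centring (4 higher). The shares of all genes tested that were called were 22.1% with the fold alone, 16.7% with the standard errors and 6.13% at 2-fold. They were 8.03% at a mean of 5 FPKM, 9.22% after scaling and 9.09% after centring. Among all genes tested, the calls numbered 649 higher and 641 lower, 1434 and 1640 with the fold alone, 1054 and 1264 with the standard errors and 450 and 403 at 2-fold. The fold and the standard errors alone call more because neither asks that the bounds be apart. The cystatins gave 5 to 7 calls, all lower. No cathepsin gene changed direction under any alternative that tested it, a minimum mean of 5 FPKM leaving out CTSK and CTSO. Scaling to the same FPKM sum moved the median of all genes tested from -0.04 to 0.03 and their split from 50.3% to 57.3% higher of the genes called. No paired analysis was possible because the table holds 1 value per cell line, and for the same reason no library could be left out. What limits these values is the width of the bounds, which is 22.8% of the FPKM or more on each side for every cathepsin gene and reaches 41.0% for CTSK. Without the 10 highest genes in the sum, the cathepsin share was 0.299% for the parental line and 0.197% for LM2-4175.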
